A study of Danio rerio with 25 samples.

Results

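miR-21, miR-146a, miR-146b and miR-155 are microRNAs linked to inflammation in mammals, and their levels were described in the ageing zebrafish brain. The members were taken by name from a table of miRNA hairpins as the entries dre-mir-21, dre-mir-146a, dre-mir-146b and dre-mir-155, with numbered copies added up. This gave 4 miRNAs from 5 hairpin entries, of 217 names and 346 entries in all. All 4 passed the filter on low counts, which kept 197 names for testing.

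A microRNA is a short RNA that guides the silencing complex to messenger RNAs and lowers their output. miR-146 is known from mammals as a brake on innate immune signalling: it is switched on by NF-kB and represses the adaptors Irak1 and Traf6 below Toll-like receptors. miR-155 is made from a non-coding host transcript in activated macrophages and lymphocytes of mammals, and it represses the inhibitors Ship1 and Socs1. miR-21 is abundant in many tissues and represses Pdcd4 in mammals. In the brain of mammals, microglia and reactive astrocytes are the cells in which these miRNAs have been studied most during inflammation.

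The study sequenced small RNA from the brains of male Danio rerio, strain AB JxTü, at 5 ages with 5 libraries each, 25 in all. The 6- and 24-month fish have no transgene in their labels. The 12-month fish carry Tg(flk:mCherry), a reporter of blood vessels, the 36-month fish carry Tg(pu.1:GFP), a reporter of myeloid cells, and the 42-month fish carry Tg(wt1a:GFP). Age and line therefore cannot be told apart except between 24 and 6 months. Titles of the 6-month libraries hold a pair of numbers and the others a single number, with no explanation. Whatever this marks also separates 6 months from every later age, 24 months included, and cannot be told apart from age there. No label says that libraries are separate animals, so p-values measure the spread between these libraries, which may be technical in part.

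Library totals ran from 3983783 to 20924118 counts. The summed level of the neuron list (miR-124, miR-9 and miR-128) ran from 111574 to 158255 CPM (reads per 1000000 counted) over the libraries, so that the labelled tissue carried its defining miRNAs. In 7 libraries the summed level of epithelial or of skin miRNAs was above 2000 CPM. There were 3 of them at 6 months (replicates 1, 2 and 5), 3 at 12 months (3, 4 and 5) and 1 at 36 months (replicate 1). In whole-brain RNA, fewer cells of a type and less of a miRNA per cell cannot be told apart.

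Levels are given as CPM, counts scaled to a common library size by edgeR's TMM method. A small RNA read spans a whole mature miRNA, so levels were not divided by length. Ligation and amplification favour some sequences, so a level in CPM is not a copy number. The 4 miRNAs spanned a wide range. miR-21 was the fifth most abundant of all 217 names, with a mean of 35264 CPM over the 25 libraries. This level sums 2 hairpin copies, and both level and rank depend on how reads matching both copies were counted, which is not given. miR-146a ranked 70 with 1320 CPM, miR-146b had 211 CPM and miR-155 ranked 176 with 9.76 CPM. The ranges of the 4 over the libraries did not overlap.

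They also differed in how much libraries of the same age varied. The pooled within-age SD on the log2 scale was 0.24 for miR-21, 0.26 for miR-146b, 0.64 for miR-146a and 0.76 for miR-155. Its median over the 197 tested miRNAs was 0.25, so that miR-21 and miR-146b lay near the middle while miR-146a and miR-155 ranked 39 and 34 from the most variable. The lowest count behind any value was 489 for miR-146b and 3004 for miR-146a. For miR-155 it was 13, at which counting error alone gives a relative SD of 27.7%.

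**Figure D1:**
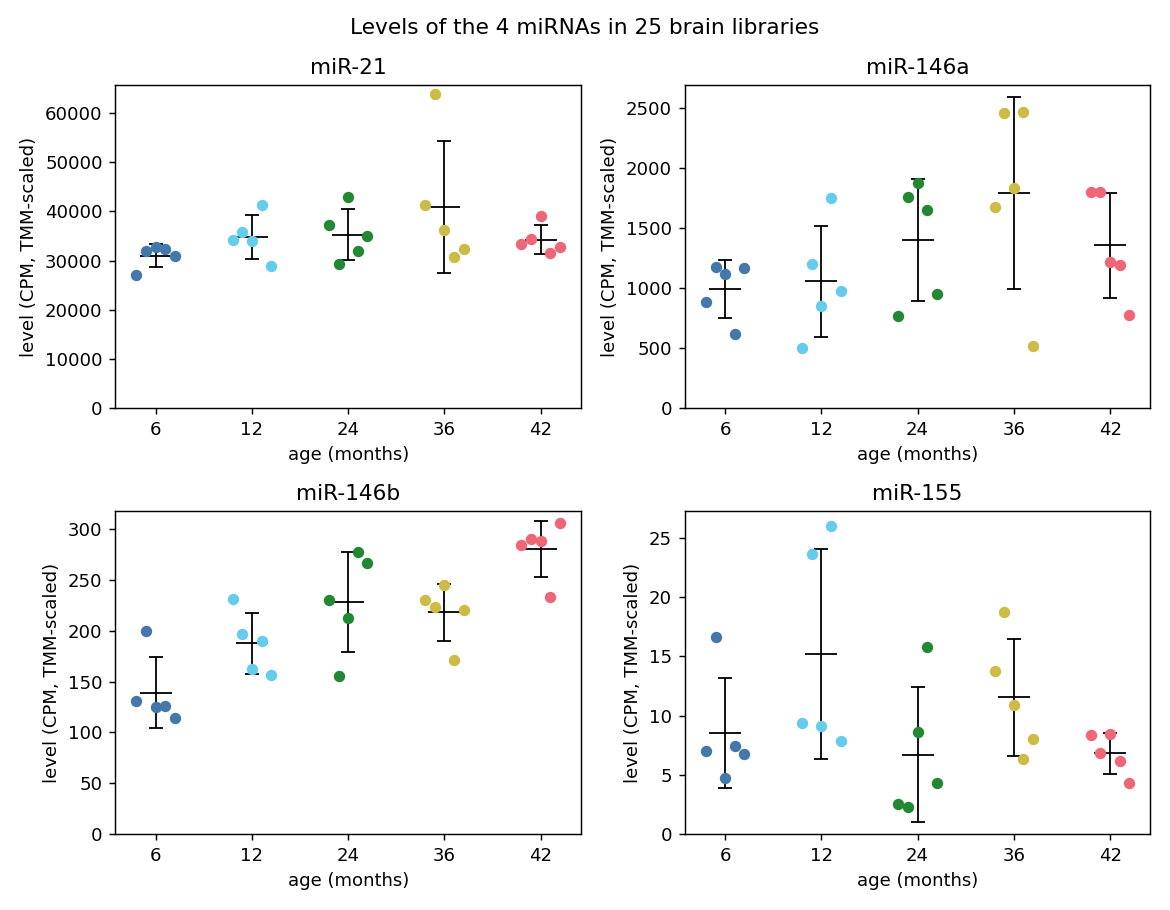
Level in CPM (TMM-scaled, linear axes from 0) of each of the 4 miRNAs by age in months. Points are single libraries, bars the mean and whiskers the SD of 5 libraries. The 42-month points of miR-146b, from 233 to 306 CPM, all lie above its 6-month points, from 114 to 200.2 CPM, while the ages overlap for the other 3 miRNAs.

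The first question was which of the 4 change as the fish age. miR-146b rose with age, and the other 3 were not called. At 6 months its 5 libraries held 130.6, 200.2, 124.8, 126.2 and 113.9 CPM. At 12 months they held 231.6, 196.8, 162.5, 190.1 and 156.5 CPM, and at 24 months 230.2, 155.1, 212.3, 277.8 and 266.2 CPM. The 6-month group was thus low in all libraries but replicate 2, and the 12-month libraries lay on both sides of that library's level. At 36 months the values were 230.5, 223.2, 245.1, 170.7 and 220.2 CPM, and at 42 months 284.3, 290.1, 287.7, 232.7 and 305.5 CPM. The oldest group was the highest and the tightest, with an SD of 9.90% of its mean against 24.9% at 6 months.

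Means of miR-146b ran from 139 ± 34.7 CPM at 6 months (SD, n = 5) through 188 ± 30.1 at 12, 228 ± 48.7 at 24 and 218 ± 28.1 at 36 to 280 ± 27.7 CPM at 42 months. The slope over all 25 libraries was 0.26 log2 units per year (SE 0.05, 95% interval 0.16 to 0.37). edgeR's quasi-likelihood test with Benjamini-Hochberg adjustment over 197 miRNAs gave an adjusted p of 4.45e-04. It was the only one of the 4 called in this trend, where 21.3% of all tested miRNAs were called and 7.61% rose. Its p ranked 8 among the 197. Without the 42-month group the slope was 0.22 and was not called (adjusted p 0.0618). Without the 6-month group it was 0.19 and narrowly called (adjusted p 0.0444).

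Any difference between the 5 ages was called for 47.7% of all tested miRNAs and for miR-146b alone of the 4 (edgeR adjusted p 0.00109). Departure from a straight line was called for 25.9% of all and for none of the 4, where the adjusted p was 0.169 for miR-146b, 0.162 for miR-155, 0.343 for miR-21 and 0.616 for miR-146a. At an unadjusted p under 0.05 the departure was also met by none of them, the lowest being 0.0741 for miR-155, where 40.1% of all tested miRNAs met it. Without 6-month replicate 2, miR-146b did depart from the line (adjusted p 0.0382). That library was the highest of its age for miR-146b and for miR-155. It was also the highest for several marker lists described further on, leukocyte, red blood cell, muscle and skin miRNAs among them. miR-155 departed without 24-month replicate 4 (adjusted p 0.0396).

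Age with no transgene named on either side was compared at 24 and 6 months. miR-146b rose by a log2 change of 0.71 (SE 0.16, 95% interval 0.38 to 1.05), with 4 of 5 older libraries above all younger ones (edgeR adjusted p 0.00573). In that comparison 32.0% of tested miRNAs were called and 13.7% were called higher. The other 3 were not called. The log2 change was 0.50 for miR-146a (interval -0.26 to 1.26), 0.19 for miR-21 (-0.13 to 0.50) and -0.36 for miR-155 (-1.37 to 0.66). The interval of miR-146a holds the change estimated for miR-146b. With library totals alone miR-21 differed by 0.0089, and with limma-voom miR-155 differed by -0.70, neither called. Red blood cell miRNAs (miR-144 and miR-451) moved the other way over the same ages. Their summed level on library totals was 1299 to 2711 CPM at 6 months, 526 to 1259 at 24 and 584 to 872 CPM at 42 months. On that scale both older groups lay below every 6-month library. The sum of the oligodendrocyte miRNAs (miR-219 and miR-338) was 14873 to 17873 CPM at 6 and 18558 to 22006 CPM at 42 months, apart as well, and overlapped at 24 months. The epithelial sum also lay below every 6-month library at 24 months and, narrowly, at 42 months. The skin sum did so narrowly at 42 months only, and the leukocyte sum at 24 months only. The neuron, endothelial, mural and mesenchymal, liver and muscle sums overlapped with their 6-month ranges at both ages. All these sums are on library totals, while the change of miR-146b is on TMM-scaled counts. The TMM factors ran from 1.00 to 1.12 at 6 months and from 0.89 to 0.99 at 24 months. With sums divided by them, the red blood cell and leukocyte ranges at 24 months overlap those at 6 months. The part of any of these sums in the rise of miR-146b was not tested. A fit without the libraries rich in epithelial or skin miRNAs is given further on.

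The oldest and youngest fish, which also differ in line, showed the largest change of miR-146b, a log2 change of 1.01 (SE 0.16, edgeR adjusted p 9.27e-05). The ranges of its 5 libraries did not overlap between 42 and 6 months, as was the case in the upward direction for 10.7% of tested miRNAs. In all 35.5% of miRNAs were called here, 14.2% of those tested being higher. The log2 change was 0.45 for miR-146a (interval -0.31 to 1.21), 0.14 for miR-21 (-0.17 to 0.45) and -0.33 for miR-155 (-1.34 to 0.68), none of them called.

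At 36 against 6 months miR-146b was higher by 0.65 on the log2 scale (SE 0.16, edgeR adjusted p 0.00773), in a comparison that called 15.7% of miRNAs, 8.12% of all tested being higher. At 12 against 6 months, with 14.2% called, its change of 0.43 (SE 0.16) missed the threshold (adjusted p 0.0668). The count behind that share went from 28 to 66 miRNAs without 12-month replicate 4. Without 6-month replicate 2 that change was 0.59 and was called (adjusted p 0.0107), and without 24-month replicate 2 it was 0.43 and called as well (0.0379). The 42-month libraries also all lay above the 12-month ones, but narrowly, the lowest at 232.7 CPM against 231.6 CPM for the highest 12-month library. The change at 42 against 12 months was 0.58 (SE 0.16, adjusted p 0.0199) where 16.8% were called and 3.05% had all older libraries higher. It was not called without 12-month replicate 3 (0.0504) or 5 (0.0517).

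Between neighbouring ages no step of the 4 miRNAs was called. Steps were called for 10.2% of tested miRNAs from 12 to 24 months, 4.57% from 24 to 36 months and 0.508% from 36 to 42 months. miR-146b moved by 0.28, -0.07 and 0.36 on the log2 scale over these steps, each with an SE of 0.16. In 36 against 12 and 42 against 24 months, with 4.06% and 1.02% called, none of the 4 was called either. In order of mean level, the 24- and 36-month groups of miR-146b are neighbours that do not differ beyond their spread, and the 6- and 42-month groups stand at the ends.

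**Figure D2:**
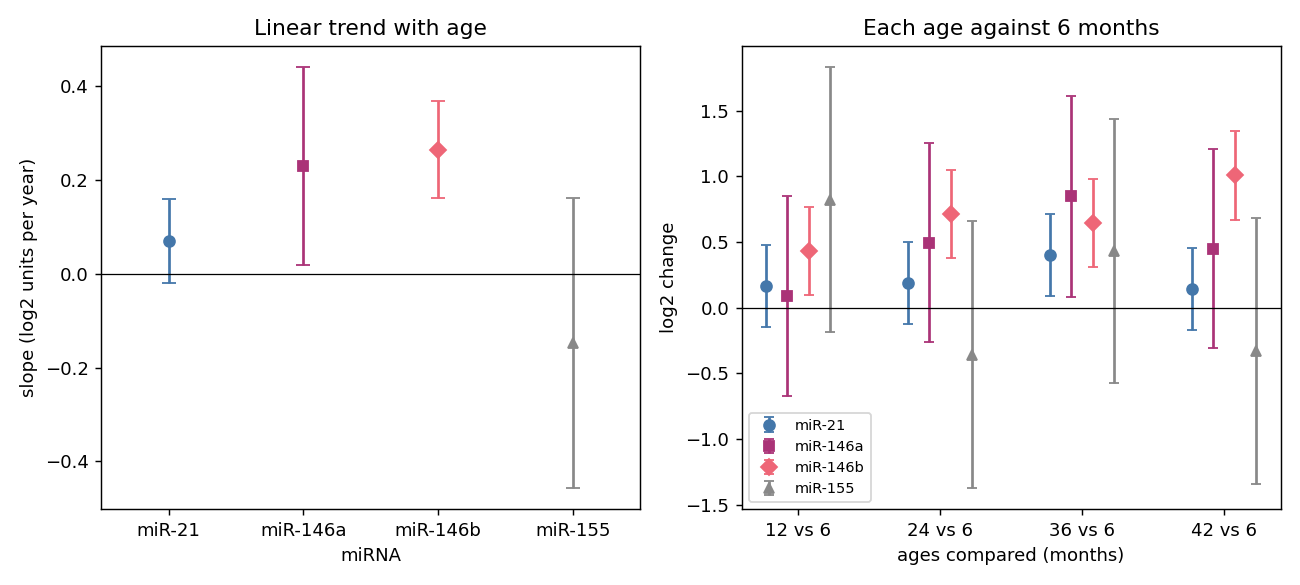
edgeR estimates for the 4 miRNAs: on the left the slope with age in log2 units per year over 25 libraries, on the right the log2 change of each later age against 6 months. Points are estimates and whiskers 95% intervals. The slopes of miR-146a (0.23) and miR-146b (0.26) lie close together, with a wider interval for miR-146a.

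miR-146a is the other copy of the miR-146 pair, encoded by a separate gene. In the RefSeq zebrafish gene table (GRCz12tu) its hairpin lies next to sufu, and that of miR-146b lies between pcyox1l and ppp2r2bb. Neither lies inside a protein-coding gene there. At 6 months the libraries held 883, 1180, 1116, 622 and 1164 CPM of miR-146a. At 12 months they held 504, 1200, 856, 1751 and 973 CPM, and at 24 months 767, 1759, 1878, 1652 and 951 CPM. From 12 months on the libraries of an age fell far apart, with the highest 3.47 times the lowest at 12 and 2.45 times at 24 months.

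This spread went on in old fish. At 36 months miR-146a stood at 1676, 2453, 1835, 2468 and 519 CPM, and at 42 months at 1796, 1798, 1216, 1196 and 781 CPM. Replicate 5 of the 36-month group lay below every 6-month library, while the other 4 of that age lay above every one of them. The means were 993 ± 240 CPM at 6 months (SD, n = 5), 1057 ± 462.3 at 12, 1401 ± 506 at 24, 1790 ± 796 at 36 and 1357 ± 438 CPM at 42 months.

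The slope of miR-146a was 0.23 log2 units per year (SE 0.10, 95% interval 0.02 to 0.44), near that of miR-146b in size but with a larger error, and it was not called (edgeR adjusted p 0.103, unadjusted 0.0348). Without 36-month replicate 5 it was 0.26 and called (adjusted p 0.0470), as were the difference between ages (0.0436) and the change of 1.09 at 36 against 6 months (0.0236). With all libraries the change at 36 against 6 months was 0.85 (SE 0.37, adjusted p 0.107).

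A call for miR-146b and none for miR-146a does not show that the paralogs differ, so their ratio was taken within each library, where the scaling of libraries cancels. miR-146a was the more abundant in 25 of 25 libraries and took between 68.5% and 93.5% of the reads of the pair. The count ratio of miR-146a to miR-146b ran from 2.18 in 12-month replicate 1 to 14.5 in 36-month replicate 4, with a median of 6.20. Per library the ratio at 6 months was 6.76, 5.89, 8.93, 4.92 and 10.2. At 12 months it was 2.18, 6.09, 5.27, 9.21 and 6.22, and at 24 months 3.33, 11.3, 8.85, 5.95 and 3.57. Within each of these ages the ratio spread more widely than the geometric means of the 5 ages, which ran from 4.65 to 7.27.

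At 36 months the ratio was 7.27, 10.99, 7.49, 14.5 and 2.36, and at 42 months 6.32, 6.20, 4.22, 5.14 and 2.55. The highest ratio of the 42-month group was below the median of the 6-month group. The mean log2 ratio was 2.83 ± 0.43 at 6 months (SD, n = 5), 2.39 ± 0.77 at 12, 2.56 ± 0.78 at 24, 2.86 ± 1.00 at 36 and 2.22 ± 0.54 at 42 months. The groups overlapped in all 10 pairs of ages.

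No difference in this ratio was detectable at this number of libraries. Its slope with age was -0.07 log2 units per year (SE 0.13, 100000 permutations, two-sided p 0.598, n = 25). At 24 against 6 months the log2 ratio differed by -0.27 (SE 0.40, exact permutation p 0.516, adjusted over 10 pairs of ages 0.833). At 42 against 6 months it differed by -0.61 (SE 0.31, exact permutation p 0.0873, adjusted 0.833), with 2 of 5 older libraries below all younger ones. A comparison of 5 libraries with 5 can give an exact p no lower than 0.00794. The rise of miR-146b and the level of miR-146a are thus not shown to diverge with age, and are not shown to move alike.

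**Figure D3:**
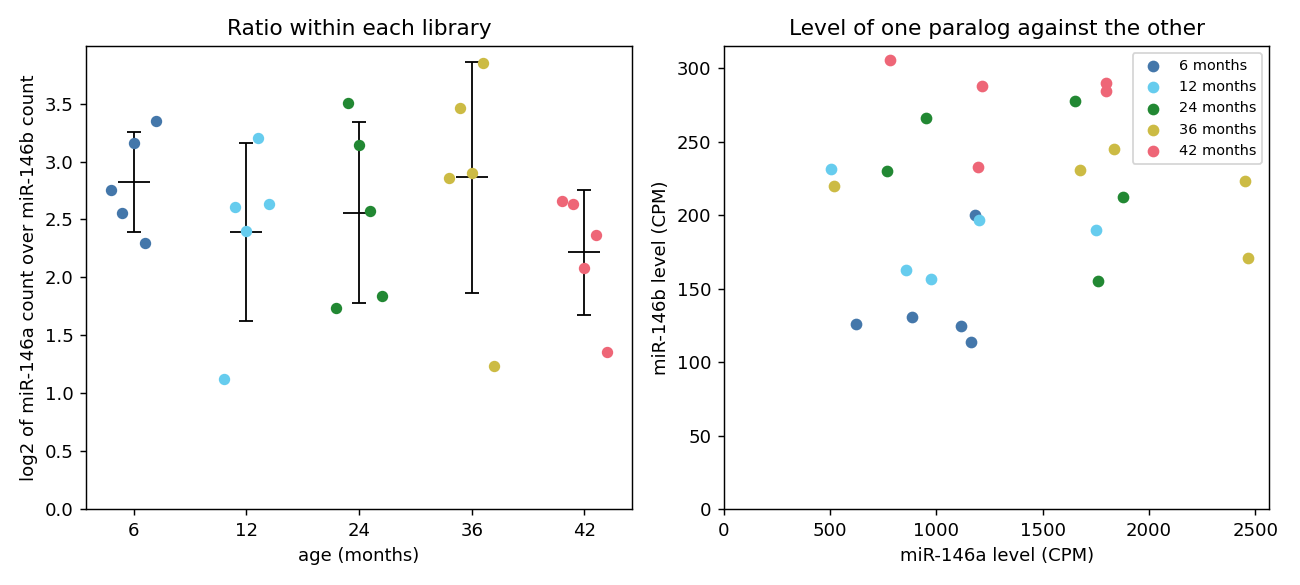
Left, log2 of the count of miR-146a over that of miR-146b in each library by age in months, with mean and SD of 5 libraries. Right, the level of miR-146b against that of miR-146a in CPM, 1 point per library, coloured by age. The 42-month libraries, which reach 306 CPM, and the 6-month libraries are apart along the miR-146b axis and overlap along the miR-146a axis.

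Within an age the paralogs did not follow each other. Pearson's r of their log2 levels over the 25 libraries was 0.16 (Spearman 0.17), and it was -0.18 after the mean of each age was taken off. These libraries share their ages and scaling, and the values are a description. In 12-month replicate 1 and 36-month replicate 5, the lowest of their ages in miR-146a (504 and 519 CPM), miR-146b stood at 232 and 220 CPM, the highest and the second lowest of those ages. miR-155 followed the others more closely within ages, with r of 0.56 for miR-146b, 0.49 for miR-21 and 0.45 for miR-146a. Over the 25 libraries its r was 0.12 for miR-146b (Spearman 0.08), 0.44 for miR-21 (0.44) and 0.28 for miR-146a (0.27). The 6-month replicate 2 was the highest of its age in both miR-155 and miR-146b, and r without it was not taken.

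miR-155, the miRNA of activated leukocytes, was scarce and uneven, with as few as 13 counts in a library. At 6 months its levels were 7.06, 16.6, 4.72, 7.45 and 6.75 CPM. At 12 months they were 9.37, 23.7, 9.09, 26.0 and 7.89 CPM, and at 24 months 2.53, 2.29, 8.61, 15.8 and 4.30 CPM. In each of these groups 1 or 2 libraries stood well above the rest. At 36 months the levels were 13.7, 18.8, 10.9, 6.34 and 8.03 CPM, and at 42 months 8.36, 6.82, 8.42, 6.16 and 4.33 CPM. The oldest group was the most even and held no such library.

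The means of miR-155 were 8.52 ± 4.65 CPM at 6 months (SD, n = 5), 15.2 ± 8.86 at 12, 6.71 ± 5.68 at 24, 11.6 ± 4.92 at 36 and 6.82 ± 1.70 CPM at 42 months. Without 6-month replicate 2 the changes of -0.36 and -0.33 at 24 and 42 against 6 months turned to 0.045 and 0.074, none of them called. The slope was -0.15 log2 units per year (SE 0.15, 95% interval -0.46 to 0.16, edgeR adjusted p 0.483). The upper bound is below the slope estimated for miR-146b, a difference between miRNAs that was not tested. Its largest difference between 2 ages was at 24 against 12 months, -1.18 on the log2 scale (SE 0.49, unadjusted p 0.0251, adjusted 0.105). Without 24-month replicate 4 that difference was -1.76 and called (adjusted p 0.0161), as was any difference between ages (0.0319).

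The miRNAs most like miR-155 over the 25 libraries were miR-462 (Pearson's r of log2 levels 0.79, Spearman 0.73) and miR-731 (0.77 and 0.74), followed by miR-27c (0.69 and 0.65). They are the top 3 of 175 candidates with a mean of at least 10 CPM. Because they were picked for likeness in these same libraries, the further values below describe that likeness and are no separate support for it. miR-462 and miR-731 are neighbours in the genome in the RefSeq table and form a cluster found in fish, which is known in fish to be induced by virus infection and interferon. With the mean of each age taken off, r was 0.78 for miR-462 and 0.68 for miR-731. Without the 2 libraries farthest from the median in the other miRNA, r was 0.70 and 0.67. The library highest in miR-155 was also the highest in miR-462 at 5 of 5 ages and in miR-731 at 4 of 5 ages. These were 6-month replicate 2, 12-month replicate 4, 24-month replicate 4, 36-month replicate 2 and 42-month replicate 3, with 12-month replicate 2 the highest for miR-731. Over the ages miR-731 was highest at 12 months like miR-155, with 883 ± 271 CPM at 12 months (SD, n = 5) and 461 ± 165 at 24 months. It was lower at 24 than at 12 months by a log2 change of -0.94 and at 42 than at 12 months by -1.03 (edgeR adjusted p 0.0371 and 0.0194). miR-462 was called in no comparison.

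**Figure D4:**
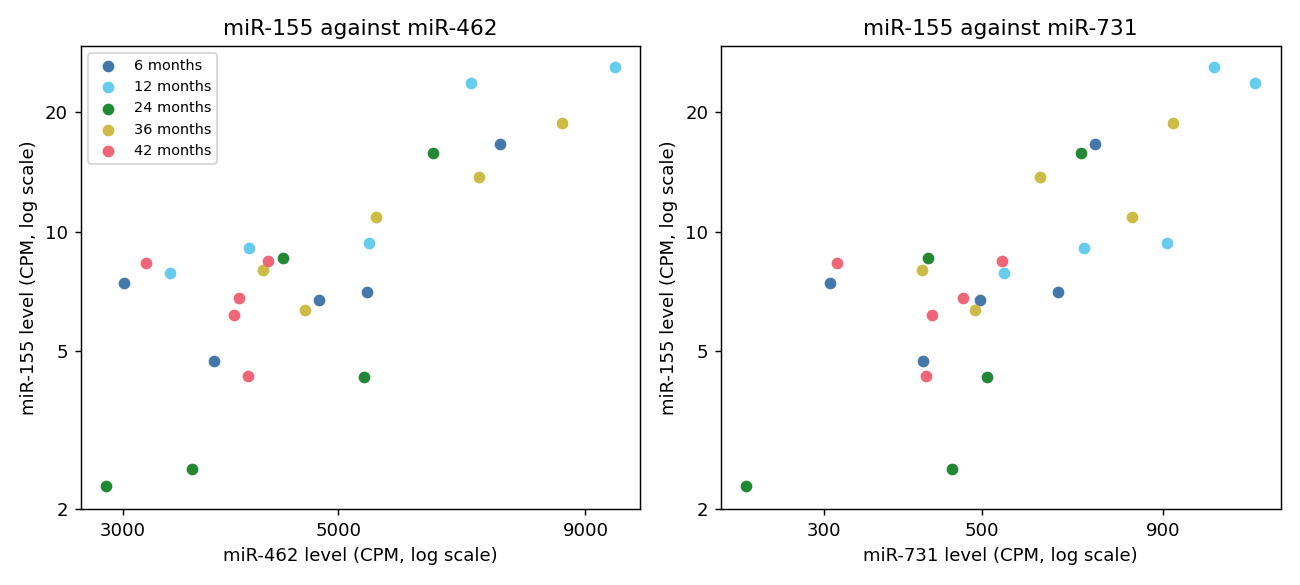
Level of miR-155 against that of miR-462 (left) and miR-731 (right) in CPM on log axes, 1 point per library, coloured by age in months. The libraries highest in miR-155, at 26.0 and 23.7 CPM at 12 months and 18.8 CPM at 36 months, are also high in both other miRNAs.

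miR-21 was high in every brain library. It held between 2.82% and 6.54% of all counts. A pair of hairpin copies carries the name, and copy 1 held between 50.5% and 50.8% of their sum in each library. How reads that match both copies were assigned is not given in the sources used here. In the RefSeq table the second copy lies next to vmp1 and the first next to rps6kb1a. At 6 months the libraries held 27058, 31878, 32736, 32402 and 31051 CPM. At 12 months they held 34298, 35811, 34038, 41271 and 28871 CPM, and at 24 months 37171, 29242, 43014, 32051 and 35074 CPM. These 3 ages overlap, although 4 of 5 libraries at 12 months lay above all 6-month libraries.

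At 36 months miR-21 stood at 41378, 63836, 36221, 30695 and 32375 CPM, and at 42 months at 33366, 34325, 39125, 31466 and 32849 CPM. The 36-month replicate 2 was the highest of the series. The same library was the highest of its age in miR-155 and miR-462. Means went from 31025 ± 2307 CPM at 6 months (SD, n = 5) through 34858 ± 4440, 35311 ± 5251 and 40901 ± 13463 to 34226 ± 2927 CPM at 42 months.

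No comparison of ages was called for miR-21. Its slope was 0.07 log2 units per year (SE 0.04, 95% interval -0.02 to 0.16, edgeR adjusted p 0.245). The upper bound is below the slope estimated for miR-146b, whose own interval starts at 0.16. A difference between these miRNAs was not tested. The largest change of miR-21 was 0.40 at 36 against 6 months (SE 0.15, unadjusted p 0.0147, adjusted 0.0761). Without 36-month replicate 2 that change was 0.18, and without replicate 4 or 5 of that age it was 0.49 and 0.48 and called (adjusted p 0.0328 and 0.0389). The miRNAs most like miR-21 were miR-222b (r 0.55, Spearman 0.36), miR-462 (0.51 and 0.38) and miR-92a (0.46 and 0.59). Without the 2 libraries farthest from the median in the other miRNA, r was 0.21, 0.24 and 0.45, so that the first 2 rest on those libraries.

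Likeness was also taken for the miR-146 pair. miR-146b was most like miR-1388 (r 0.73), miR-100 (0.67) and miR-101a (0.65). With the mean of each age taken off these fell to 0.42, 0.10 and 0.06, so that for the last 2 the likeness lay in the age means. miR-146a had no close companion: its top 3 were miR-29b (0.41), miR-21 (0.39) and miR-135a (0.39), and without the 2 farthest libraries these were 0.17, 0.14 and 0.23.

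Leukocyte content was read from miR-142a, miR-142b, miR-150 and miR-223, miRNAs of blood cells and immune cells. All 4 were present. Their summed level on library totals was 1299 to 2975 CPM at 6 months, 1256 to 2069 at 12, 1037 to 1209 at 24, 1211 to 1980 at 36 and 1232 to 1671 CPM at 42 months. Its mean was 1730 CPM at 6 and 1488 CPM at 42 months, and without 6-month replicate 2 the 6-month mean was 1418 CPM, so that 1 library sets the order of these ages. At 24 against 6 months miR-142a fell by 0.58 and miR-142b fell by 0.66 on the log2 scale (edgeR adjusted p 0.0481 and 0.0390). In that comparison miR-150 changed by -0.36 and miR-223 by 0.21, neither called (edgeR adjusted p 0.187 and 0.572). At 24 against 12 months miR-142a and miR-142b were lower as well, with log2 changes of -0.91 and -0.85 (edgeR adjusted p 0.00901 and 0.0232). At 36 against 24 months miR-142a was higher by 0.77 (adjusted p 0.0414), and miR-142b changed by 0.59, not called (0.138). Neither miR-150 nor miR-223 was called in these comparisons. At 42 against 6 months none of the 4 was called.

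Marker lists were also set beside the highest library of each age. The lists were ranked on library totals and the 4 miRNAs on TMM-scaled CPM. The counts of all lists below can therefore shift with the scale. The library highest in miR-155 was the highest in the leukocyte and the skin lists at 3 of 5 ages each. It was the highest in the red blood cell and the muscle lists at 4 of 5 ages each. For miR-146a the leukocyte, red blood cell, muscle and skin lists gave 3 of 5 ages each. At 24 months replicate 3 was the highest of its age in miR-146a and miR-21. With list sums divided by the TMM factors it is also the highest of its age in the leukocyte list, which it is not on library totals. For miR-21 the leukocyte, red blood cell and muscle lists gave 2 of 5 each and the skin list 1 of 5. For miR-146b the leukocyte list gave 1 of 5, and the red blood cell, muscle and skin lists 2 of 5 each. The neuron, oligodendrocyte, endothelial, mural and mesenchymal, liver and epithelial lists gave between 0 and 2 of 5 for each of the 4 miRNAs. In 6-month replicate 2 the leukocyte sum was 2975 CPM, in 12-month replicate 4 it was 2069 and in 36-month replicate 2 it was 1980 CPM. In 24-month replicate 4, the highest of its age in miR-155, the leukocyte sum on library totals was 1083 CPM, the median of that age. Divided by the TMM factors it was the lowest of that age. The red blood cell sum of that library was the highest of that age, at 1259 CPM on library totals. In 6-month replicate 2, 12-month replicate 4 and 36-month replicate 2 the red blood cell sum was 2711, 1046 and 1506 CPM. The part of blood, leukocyte, muscle or skin content in the levels of miR-155 and miR-146a was not tested.

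Epithelial and skin miRNAs also marked some of these libraries. Without the 7 libraries above 2000 CPM, a limit chosen after the data were seen, miR-146b kept its slope at 0.25 (adjusted p 0.0301) and its change at 0.85 for 24 against 6 months (0.0160) and 1.18 for 42 against 6 months (0.00133). In the same settings the 24 against 6 and 42 against 6 month changes of miR-155 were 0.12 and 0.18 in place of -0.36 and -0.33, and neither was called. Only 2 libraries were left at 6 and 2 at 12 months.

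Other miRNAs with known roles in immune cells or NF-kB signalling were taken from a list of 18, of which 17 were present and tested. The list includes the 4 leukocyte miRNAs. None was called in the linear trend by edgeR, 2 of the 17 (11.8%) had an unadjusted p under 0.05 against 37.6% of all tested miRNAs, and the median slope was 0.01 log2 units per year, against -0.01 for all miRNAs. At 24 against 6 months 5 of the 17 (29.4%) were called, near the 32.0% of all tested miRNAs, and at 42 against 6 months 4 (23.5%), below the 35.5% of all. At 24 against 6 months 3 rose, the neuronal activity miRNAs miR-132 (0.46, edgeR adjusted p 0.00757) and miR-212 (0.35, 0.0308) and miR-221 (0.66, 0.0381), a regulator of cell-cycle inhibitors. The fall of the miR-142 pair given above makes up the 2 that were lower. At 42 against 6 months 3 rose, miR-222b (1.03, 0.0205), miR-125b (0.22, 0.0313) and miR-212 (0.35, 0.0279), and miR-181b fell by 0.20 (adjusted p 0.0421). The median change of the list was 0.12 in both comparisons, against 0.04 and -0.02 for all tested miRNAs. miR-146b, at 0.71 and 1.01, was thus above this median at both ages, beside miRNAs of the list that rose and others that fell.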

How the data were processed

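The deposited table holds whole-number counts per miRNA hairpin for the 25 libraries. Per the labels, libraries were made with the TruSeq small RNA kit, and the aligner BWA (0.7.12-r1039) is listed beside SAMtools (1.3.1-9), CASAVA (1.8.4) and the trimmer Trimmomatic (0.36) in the submitters' processing notes. Which build, annotation and counter were used, and how reads with several matches were treated, is not given in those notes or the labels. The arms of a hairpin are not separated. Copies were summed by name. The filter was filterByExpr with a count minimum of 10 and a total of 15. Scaling was by TMM, and tests were edgeR 4.0.16 quasi-likelihood tests in R 4.3.3, adjusted over the 197 tested names with a threshold of 0.05. Slopes came from a model in age, other contrasts from a model with 5 ages, all on 25 libraries. SEs were derived from the F statistic. limma 3.58.1 and DESeq2 1.42.0 served as alternatives. The count ratio used a pseudocount of 0.5 and permutation tests. Scripts were tested on simulated data. The members, the lists and the rule for naming miRNAs (for each member the 3 others of highest Pearson's r with a mean of at least 10 CPM, and those of the immune-linked list called in the trend, 24 against 6 or 42 against 6 months) were chosen with earlier results of these data known.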

Additional observations from a re-analysis of the deposited data

Results flagged for a closer look

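In a group of 5 libraries, a value was singled out where its gap to the nearest other exceeded Dixon's 95% limit of 0.71 of the whole range, which chance gives in about 1 of 20 groups. Of 25 groups examined 2 were singled out, both through 6-month replicate 2. Its miR-146b, at 200.2 CPM, stood above the other 4 by 0.81 of the range. Its miR-155, at 16.6 CPM, stood above them by 0.77 of the range. On library totals, the same library was the highest of its age in the leukocyte (2975 CPM), red blood cell (2711), muscle (2405) and skin (3861) lists. On that scale it was also the highest in the endothelial (7866), mural and mesenchymal (22073) and liver (8.18) lists. Its lead in the liver list was narrow, with 8.03 CPM in replicate 5. Its TMM factor, 1.12, was the highest of the series, and with sums divided by these factors replicate 5 is the higher in the liver list. In the neuron list 6-month replicate 2 was the lowest of its age, at 113333 CPM on library totals. This library is among the 7 libraries above 2000 CPM in epithelial or skin miRNAs. The part of any of these in its values was not tested. Without this library, miR-146b still rose at 24 and 42 against 6 months.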

How the results depend on the processing

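miR-146b kept its direction and its call at 24 against 6 and 42 against 6 months under every other scaling, tool and filter run. The same held with each library left out, with changes of 0.64 to 0.89 and 0.95 to 1.18. With library totals alone its changes were smaller, 0.53 and 0.91 (edgeR adjusted p 0.0182 and 2.61e-04). Its slope was 0.25 to 0.29 over the libraries left out and lost its call without the 42-month group (0.22). With miR-146a and miR-146b counted as 1 miRNA the slope was 0.24 and called, while the changes were 0.53 at 24 and 0.54 at 42 against 6 months and not called; miR-146a holds most of those reads. The slope of miR-146a was 0.20 to 0.27 over the libraries left out. Directions turned only where the effect was not called. With library totals alone, which moved the median of all miRNAs at 24 against 6 months from 0.04 to -0.14, miR-21 turned to -0.12 at 24 against 12 and 0.047 at 42 against 24 months, miR-146a to 0.044 at 42 against 24 and miR-146b to 0.0066 at 36 against 24 months. With limma-voom miR-146a turned to -0.020 at 12 against 6 months. Without the epithelial-rich libraries, an alternative chosen after seeing the data, miR-155 turned to 0.12 at 24 and 0.18 at 42 against 6 months. Over the libraries left out, miR-21 ran from -0.056 to 0.087 at 24 against 12, -0.0047 to 0.30 at 36 against 24, -0.078 to 0.042 at 42 against 12 and -0.10 to 0.037 at 42 against 24 months. Likewise miR-146a ran from -0.17 to 0.27 at 12 against 6 and -0.20 to 0.13 at 42 against 24 months, and miR-146b from -0.16 to 0.015 at 36 against 24 months. miR-155 ran from -0.94 to 0.045 at 24 against 6, -0.48 to 0.074 at 42 against 6 and -0.18 to 0.61 at 42 against 24 months. The slope of the ratio was 0.0090 when the youngest fish were left out, 0.060 when the oldest were, and 0.0044 without the epithelial-rich libraries, and -0.12 to -0.01 over the libraries left out. The causes were not tested. Of all miRNAs, 42 of 197 were called in the trend, 65 of 269 hairpin entries where copies were not summed, 20 without the youngest fish and 11 without the oldest or the epithelial-rich libraries. Any difference between ages was called for 94, and for 61 with limma-voom. At 12 against 6 months 28 were called, and 19 to 66 over the libraries left out. At 24 against 6 months 63 were called, 9 without the epithelial-rich libraries and 24 to 66 over the libraries left out; at 42 against 6 months these counts were 70, 24 and 46 to 80. At 36 against 24 months 9 were called, 16 with library totals and 5 with limma-voom, and at 42 against 24 months 2 were called and 4 with DESeq2 size factors or library totals. A mean minimum of 10 CPM removes miR-155, so that setting gives no value for it. The lowest count of miR-155 was 13, a relative counting SD of 27.7%. No paired analysis was possible because the labels give no replicate numbers shared between ages.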
